A study of Mus musculus with 39 samples.

Results

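ATP-binding cassette (ABC) genes were followed in RNA sequencing of brain endothelial cells from mouse pups that had lost Smad4, Alk1 or Eng in the endothelium. The family was taken as every gene symbol that begins with Abc, then a letter from a to g and a number, which gave 50 of the 24946 genes held by all tables. A gene counted as measured in a comparison when its value reached 20 in at least 5 libraries of that table, or in at least 3 libraries of the antibody tables. By that rule 37 members were measured in the Smad4 table, 35 in the Alk1 table, 37 in the Eng table and 36 in the IgG comparison. Of the 50, 34 were measured in all 4 comparisons, 3 in some of them and 13 in none. By role, the members measured somewhere were 6 efflux pumps of the blood-brain barrier, 12 sterol and lipid transporters, 4 mitochondrial, 5 peroxisomal or lysosomal, 4 ABC proteins of translation, 2 channel regulators and 4 others.

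ABC proteins bind and hydrolyse ATP, and most of them use it to carry a substrate across a membrane. In the capillaries of the brain, P-glycoprotein and the breast cancer resistance protein sit in the luminal membrane and return drugs and other lipid-soluble compounds to the blood, which makes them a defining part of the blood-brain barrier. Other members export cholesterol and phospholipids to lipoproteins, import fatty acids into peroxisomes, serve the mitochondrial inner membrane, or, in the ABCE and ABCF subfamilies, act on ribosomes and carry nothing across a membrane.

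The mice were C57BL/6 pups with floxed alleles of Smad4, Alk1 (gene symbol Acvrl1) or Eng, 3 genes of the BMP9 pathway whose loss models hereditary haemorrhagic telangiectasia. Mutants (Smad4f/f; Cdh5-CreERT2, Alk1f/f; Cdh5-CreERT2 or Engf/f; Cdh5-CreERT2) carried a tamoxifen-inducible Cre under the endothelial Cdh5 promoter, and wild types (Smad4f/f, Alk1f/f or Engf/f) carried the same floxed alleles with no Cre, so the presence of Cre and the deletion cannot be told apart. Mutants and wild types alike received tamoxifen, 300 µg on postnatal days 1 to 3 in the Smad4 and Eng models and 100 µg on day 4 in the Alk1 model, and brains were taken on day 7, or on day 6 in the Alk1 model. Each untreated model had 5 mutants and 5 wild types. In the antibody arm of the Smad4 model, 30 µg on days 2 and 4 was given as LC10, an inhibitor of angiopoietin-2, to 3 mutants, and as control IgG to 3 mutants and 3 wild types. Endothelial cells were pulled from digested whole brains with PECAM-coated beads.

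The 39 libraries held 16125 to 17708 genes above 0 and an approximate 11110000 to 30920000 fragments each. Fragments were inferred by taking the most frequent low value of a library as a single fragment. Values are the authors' normalized values per gene, called normalized values below, as group mean ± SD, and log2 fold changes are mutant over wild type ± SE, tested with limma across all measured genes with Benjamini-Hochberg adjustment. As a check on the labels, Smad4 stood at 1819.9 ± 113 in Smad4 mutants and 5704 ± 264 in wild types (n = 5 each), at 2315 ± 635 in IgG-treated mutants and 5848 ± 194 in IgG-treated wild types (n = 3 each), and Eng at 10152 ± 1234 in Eng mutants and 63420.4 ± 4121 in wild types. Acvrl1 stood at 14152 ± 1479.9 in Alk1 mutants and 15319 ± 1011 in wild types (log2 fold change -0.12 ± 0.08, adjusted p = 0.279), and no label states what portion of the gene is floxed, so it does not check the Alk1 genotype. All 8 endothelial markers looked at were present. They summed to 392265 to 493067 in Smad4 mutants and 373738 to 447653 in their wild types (2 called higher, 0 lower). In the Alk1 model they summed to 373542 to 424020 in mutants and 396008 to 429313 in wild types (3 higher, 1 lower). In the Eng model it was 482192 to 515229 in mutants and 493408 to 556343 in wild types (0 higher, 3 lower). Under IgG it was 414837 to 419801 in mutants and 407475 to 428610 in wild types (2 higher, 1 lower). Their part in the ABC results was not tested. The 8 pericyte markers summed to 14408 to 46277 in Smad4 mutants and 54361 to 75884 in wild types, and to 35228 to 69994 in IgG-treated mutants and 72357 to 99641 in IgG-treated wild types, and 6 of 8 were called lower in both. In both comparisons these sums were apart between genotypes. A fit that includes the pericyte level can thus hardly tell it from genotype there. A call lost in such a fit does not show what part pericytes had. In the Alk1 model the sums were 54684 to 107214 in mutants and 83385 to 104871 in wild types, with 2 of 8 called lower, and in the Eng model 67006 to 120818 in mutants and 71708 to 117179 in wild types with 0 of 8 called. In bulk RNA, fewer cells of a type and less RNA per cell cannot be told apart. The labels do not say that the libraries of a group came from separate animals, so p-values cover the spread between these libraries only.

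Per kilobase of exon, Abcb1a and Abca1 stood far above every other member in wild-type cells. In the Smad4 wild types Abcb1a had a normalized value of 5675 ± 275 per kilobase and Abca1 4578 ± 458 (SD, n = 5). Next came Abcg2 with 1080.2 ± 106, Abcf1 with 1045 ± 58.0, Abcc4 with 1023 ± 84.5, Abcf2 with 919 ± 51.1 and Abcg1 with 814 ± 66.8 per kilobase, and among Abcg2, Abcf1 and Abcc4 the levels lay within an SD of each other. The other measured efflux pumps were much lower, at 267 ± 9.71 for Abcc5, 44.2 ± 3.81 for Abcc1 and 13.4 ± 5.30 for Abcb1b per kilobase. Abcb1a thus held 70.1% ± 0.755 of the summed per-kilobase level of the efflux list in Smad4 wild types, with 13.3% ± 0.677 for Abcg2 and 12.6% ± 0.491 for Abcc4. The 13 members measured nowhere were Abca6, Abca12 to Abca17, Abcb5, Abcb11, Abcc2, Abcc12, Abcg5 and Abcg8. Their values never passed 35.7 (Abca13), and Abca15, Abcb5 and Abcb11 were listed at 0 in all 39 libraries. Abcb11 is the bile salt export pump of the liver, and Abcg5 and Abcg8 form the sterol exporter of liver and gut.

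**Figure D1:**
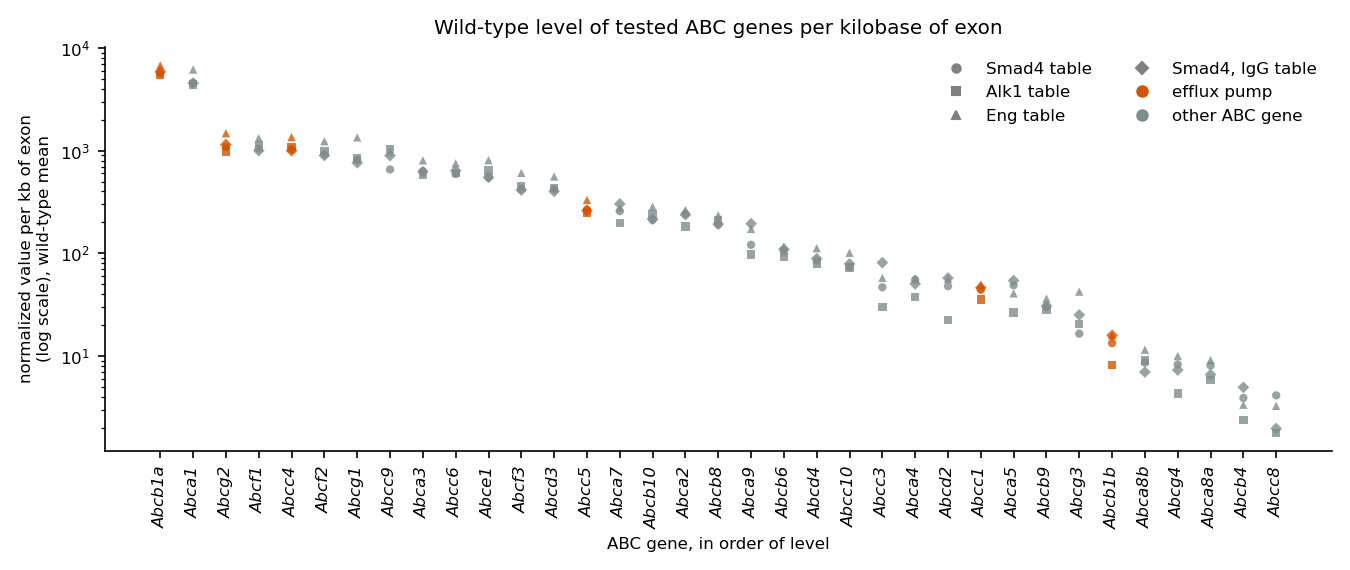
Wild-type mean of ABC genes measured in at least 1 comparison, as normalized value per kilobase of exon on a log scale (y axis), with genes in order of their mean level (x axis), 1 symbol per table, efflux pumps in orange and other members in grey. In the Smad4 wild types Abcb1a averages 5675, Abca1 4578, Abcg2 1080.2 and Abcb1b 13.4.

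**Figure D2:**
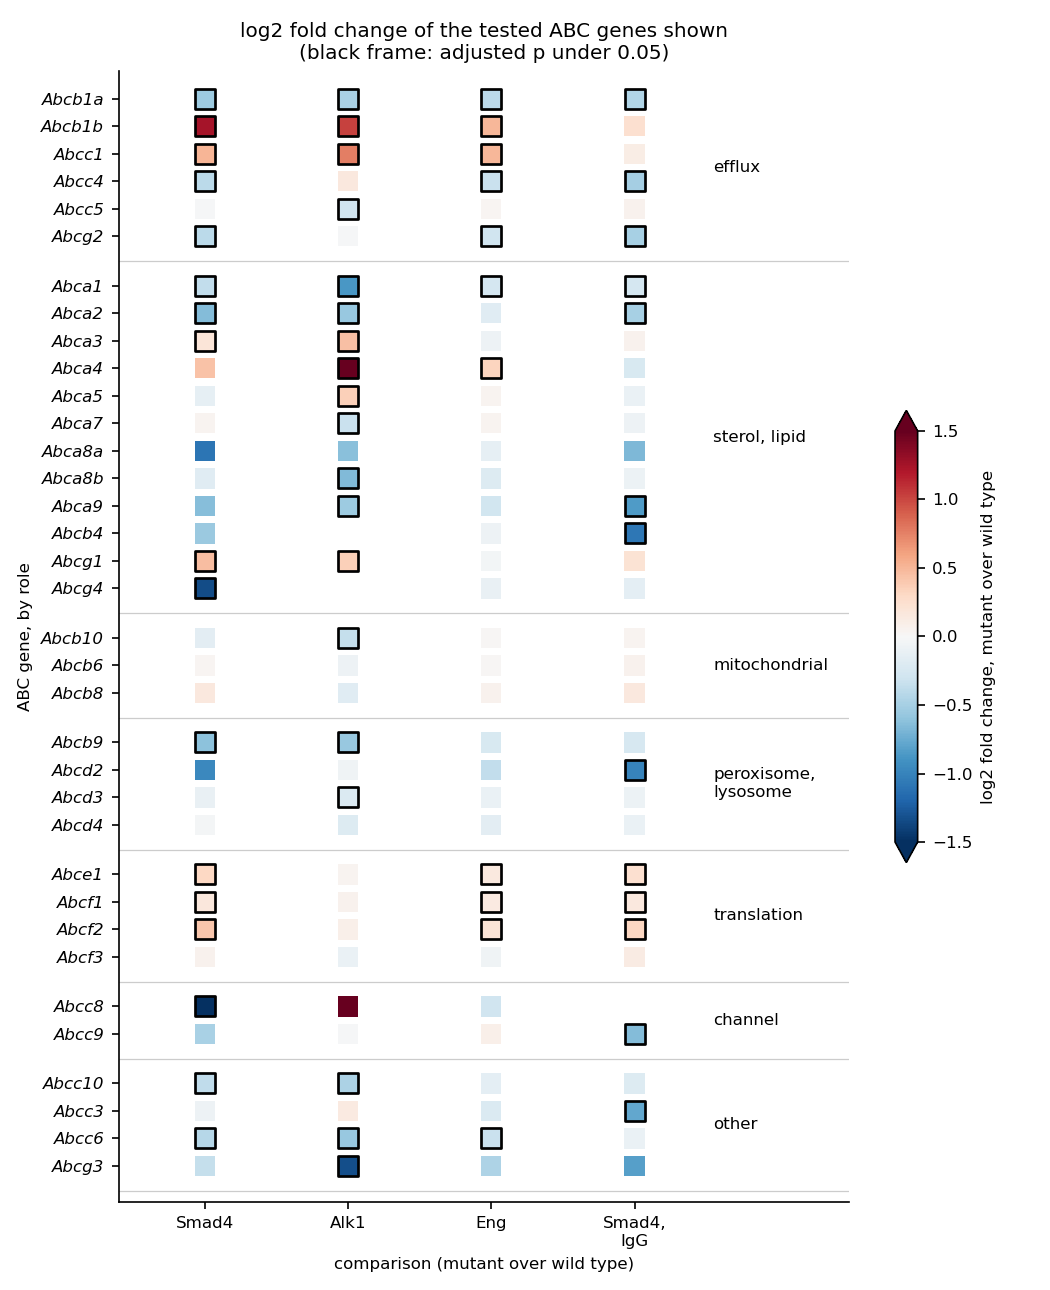
Log2 fold change of mutant over wild type (colour, blue lower and red higher, ends of the scale at 1.5) for measured ABC genes (rows, by role) in the 4 comparisons (columns), with a black frame where the adjusted p was under 0.05 and no square where a gene was not measured. Abcb1a and Abca1 are framed blue in all 4 columns.

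Loss of Smad4 moved 17 of the 37 measured members past the threshold, 7 higher and 10 lower, beside 33.0% of all 14012 genes tested (17.2% higher and 15.8% lower). Loss of Alk1 moved 20 of 35, 6 higher and 14 lower, beside 33.2% of 13635 genes (17.5% higher and 15.7% lower). Loss of Eng moved 11 of 37, 6 higher and 5 lower, beside 21.5% of 14350 genes (12.4% higher and 9.08% lower). Under IgG, loss of Smad4 moved 13 of 36, 3 higher and 10 lower, beside 24.0% of 14052 genes (13.2% higher and 10.8% lower). The median log2 fold change of the members was -0.16 for Smad4, -0.18 for Alk1, -0.08 for Eng and -0.10 for IgG, and that of all genes tested lay between -0.01 and 0.00. With each library divided by its total the split was 5 higher and 13 lower members in the Smad4 comparison, and 1692 higher and 2857 lower against 2409 and 2211 over all genes. In the Alk1 comparison that scaling gave 1866 higher and 2676 lower genes, against 2386 and 2144. The efflux pumps were called in 5 of 6, 4 of 6, 5 of 6 and 3 of 6 cases in the 4 comparisons, and the other members in 12 of 31, 16 of 29, 6 of 31 and 10 of 30. Among the 35 members measured in all untreated models, 3 were called lower in all 3 of them (Abcb1a, Abca1 and Abcc6), beside 3.10% of the 13500 genes tested in all 3, and 2 were called higher in all 3 (Abcb1b and Abcc1), beside 4.81%. In at least 1 model 26 of the 35 were called, beside 54.5% of those genes, and 9 in none. No member was called in opposite directions in different models, beside 1.99% of those genes.

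Abcb1a, which encodes the main P-glycoprotein of rodent brain capillaries (ENSMUSG00000040584.8, mm10 chromosome 5, 8660077 to 8748575), was lower in the mutants of every comparison. Its normalized values were 22332, 22244, 19249, 20329 and 22449.6 in the Smad4 mutants, against 28996, 30392, 31141, 32900.3 and 32059.6 in the Smad4 wild types. In the Alk1 model they were 18086, 21719, 24215, 22280.2 and 20765 in mutants and 31241, 27516, 30792, 31169 and 28650.4 in wild types. Every mutant lay below every wild type in both models. In the Eng model the mutants had 29691, 27830.4, 26549.9, 27606 and 28109 and the wild types 35380.2, 37588, 39399.7, 34501 and 38462. Under IgG the Smad4 mutants had 25519.7, 22861 and 22075 and the wild types 32898, 31401 and 32107. The groups were again fully apart in both, as they were for 22.8% of all genes in the Smad4, 24.5% in the Alk1, 16.5% in the Eng and 40.9% in the IgG comparison. The log2 fold changes were -0.55 ± 0.06 (adjusted p = 8.49e-05) for Smad4, -0.49 ± 0.08 (adjusted p = 0.000741) for Alk1, -0.41 ± 0.05 (adjusted p = 8.36e-05) for Eng and -0.45 ± 0.06 (adjusted p = 0.00117) for Smad4 under IgG. All 4 calls held under every alternative run. The fall of Abcb1a did not differ between models past the threshold (Smad4 minus Eng -0.14 ± 0.09, adjusted p = 0.357, the widest gap). With the pericyte marker level in the fit the log2 fold change in Smad4 mutants was -0.58 (adjusted p = 0.00279).

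Abcg2, the breast cancer resistance protein and the second main drug pump of the luminal membrane, fell in the Smad4 and Eng models and was not called in the Alk1 model. Its values in Smad4 mutants were 6744, 6665, 6362, 6547 and 6934, against 7998, 8531, 8064, 9881 and 9559 in wild types, with no overlap (log2 fold change -0.40 ± 0.07, adjusted p = 0.00107). In Eng mutants they were 10767, 9149.9, 9039, 9533 and 10189.6, against 10832, 12228, 13678, 11079.5 and 12363 in wild types. There the highest mutant came just under the lowest wild type (log2 fold change -0.30 ± 0.07, adjusted p = 0.00706). Alk1 mutants had 6706, 8436, 8411, 8557 and 7556 and wild types 7978, 8001, 8069, 8460.1 and 7519, which overlap (log2 fold change -0.02 ± 0.07, adjusted p = 0.871). IgG-treated mutants had 7164, 6449 and 6194 and IgG-treated wild types 9346, 9737 and 8961, again apart (log2 fold change -0.50 ± 0.07, adjusted p = 0.00225). The effect in the Smad4 model minus that in the Alk1 model was -0.38 ± 0.10, adjusted p = 0.00811, and Alk1 minus Eng was 0.29 ± 0.10, adjusted p = 0.0510, just short of the threshold. Under IgG the adjusted p was 0.0516 with the pericyte marker level in the fit.

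Abcc4, also called MRP4, exports organic anions and cyclic nucleotides, and it was called lower in the same 3 comparisons as Abcg2. Smad4 mutants had 4382, 4753, 4217, 5325 and 6277 and wild types 5797, 6574, 6239.8, 6905 and 7164. Only mutant 5 reached into the wild-type range (log2 fold change -0.40 ± 0.10, adjusted p = 0.0143). Eng mutants had 7364, 6142, 6834, 6661 and 7294 and wild types 8731, 8086, 8658, 8169 and 9579.6, with no overlap (log2 fold change -0.33 ± 0.06, adjusted p = 0.00158). IgG-treated mutants had 4426, 4601 and 4366 and IgG-treated wild types 6650.1, 5840.0 and 6638 (log2 fold change -0.51 ± 0.06, adjusted p = 0.000944). Alk1 mutants spread widely, at 4865, 9366, 9126, 8766 and 7405, around wild types that lay close together at 6551, 6829, 7066, 6989.6 and 7110.4. There 4 of the 5 mutants were above every wild type and mutant 1 was below every wild type (log2 fold change 0.16 ± 0.15, adjusted p = 0.461), and without mutant 1 the log2 fold change was 0.32 (adjusted p = 0.00560). The effect in the Smad4 model minus that in the Alk1 model was -0.56 ± 0.17, adjusted p = 0.0237, and this call was lost without Alk1 mutant 2 or 3 (highest adjusted p = 0.0507). The Alk1 minus Eng difference, 0.49 ± 0.17, adjusted p = 0.0499, was lost in 30 of 35 alternatives.

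Abcb1b, the other mouse P-glycoprotein gene, went the opposite way to Abcb1a in the untreated models. It lies 49.6 kb beyond Abcb1a on chromosome 5 (ENSMUSG00000028970.9, 8798147 to 8866315). Smad4 mutants had 259, 224, 255, 221 and 270.2 and wild types 82.2, 99.1, 181, 94.2 and 77.4. All 5 mutants lay above every wild type, and wild type 3 stood away from its group (log2 fold change 1.25 ± 0.21, adjusted p = 0.00129). Alk1 mutants had 91.7, 142, 160.0, 112 and 165 and wild types 88.8, 50.1, 49.3, 55.1 and 83.1, with the lowest mutant just above the highest wild type (log2 fold change 1.03 ± 0.23, adjusted p = 0.00462). Eng mutants had 171, 164, 171, 189 and 207 and wild types 127, 134, 107, 152 and 117, without overlap (log2 fold change 0.50 ± 0.12, adjusted p = 0.0131). Under IgG the mutants spread from low to high, at 93.9, 143 and 227, across wild types at 156, 142 and 82.7 (log2 fold change 0.24 ± 0.35, adjusted p = 0.641). The effect under IgG minus that in untreated pups was -1.01 ± 0.42, adjusted p = 0.617, so no difference between them was shown. The Alk1 call was lost among libraries without a library code (adjusted p = 0.0606) and with the pericyte level in the fit (adjusted p = 0.0820), and the Eng call among libraries of code L210 (adjusted p = 0.0553).

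Levels of Abcb1b and Abcb1a are uncertain against each other, because 11.1% of the 50-base windows of Abcb1b exons also occur in Abcb1a, and 16.3% of those of Abcb1a in Abcb1b. Per kilobase, Abcb1b reached 0.792% ± 0.0824 of the Abcb1a level in Smad4 mutants and 0.236% ± 0.0932 in wild types. It reached 0.428% ± 0.0842 in Alk1 mutants and 0.150% ± 0.0433 in wild types, and 0.443% ± 0.0456 in Eng mutants and 0.238% ± 0.0439 in wild types (SD, n = 5 each). No library had an Abcb1b level above 0.907% of its Abcb1a level.

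**Figure D3:**
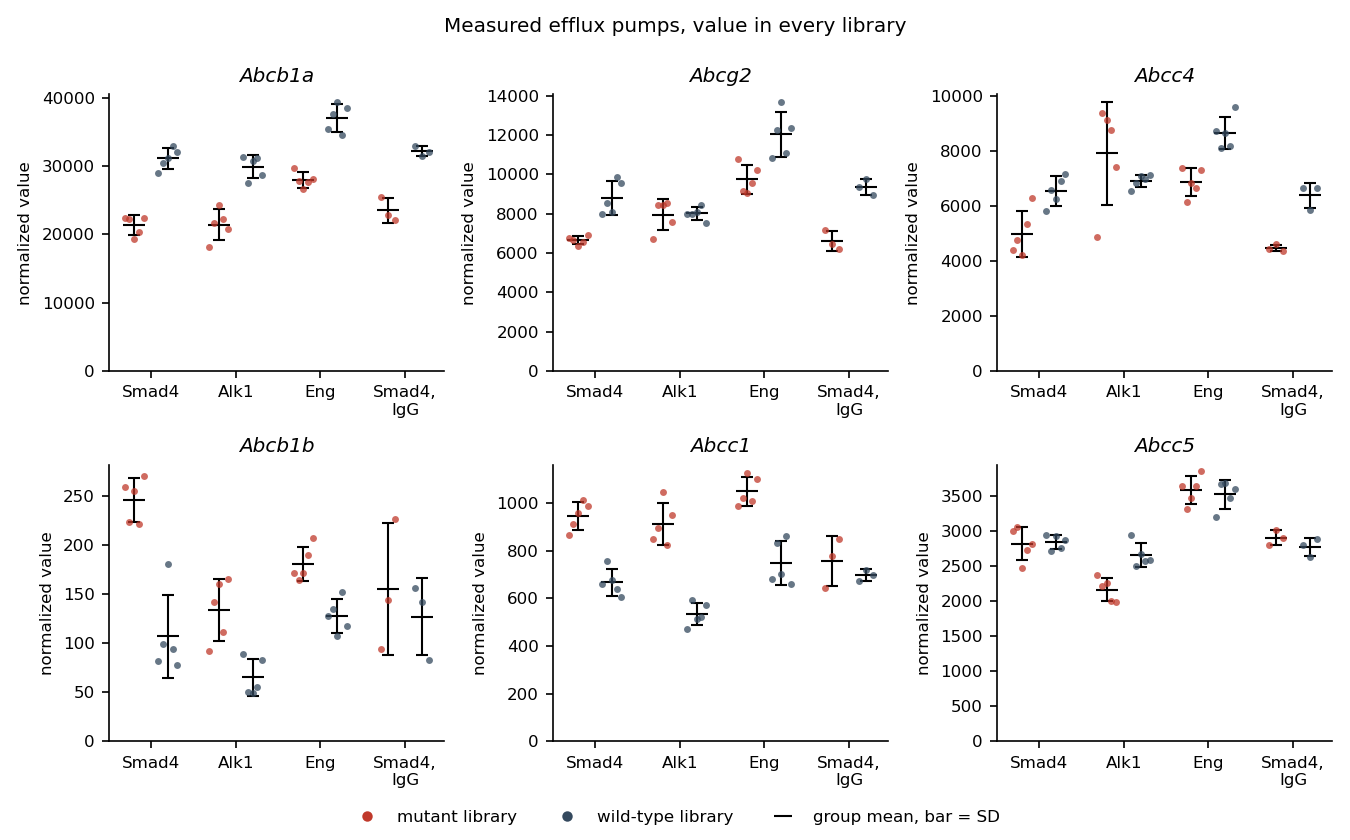
Normalized value (y axis, from 0) of the 6 measured efflux pumps in every library of the 4 comparisons (x axis), mutants in red at the left and wild types in blue at the right of each pair, with the group mean and SD in black. Abcb1a is lower in all mutants, Abcb1b and Abcc1 are higher in all mutants of the 3 untreated models, and Abcg2 and Abcc4 are lower except in the Alk1 model.

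Abcc1, also called MRP1, a pump of glutathione conjugates and leukotriene C4, rose in the 3 untreated models. Smad4 mutants had 865, 912, 959, 1011 and 986 and wild types 658, 758, 677, 640.0 and 603 (log2 fold change 0.51 ± 0.08, adjusted p = 0.000575). Alk1 mutants had 847, 896, 1044, 824 and 947 and wild types 472, 592, 513, 521 and 571 (log2 fold change 0.77 ± 0.09, adjusted p = 5.73e-05). Eng mutants had 985, 1019, 1126, 1009 and 1100.1 and wild types 681, 831, 701, 861 and 660.0 (log2 fold change 0.49 ± 0.08, adjusted p = 0.00114). In all 3 models every mutant lay above every wild type, and the calls held under every alternative run. IgG-treated mutants had 645, 775 and 849, around wild types at 673, 720.3 and 698 (log2 fold change 0.11 ± 0.11, adjusted p = 0.498). The effect under IgG minus that in untreated pups was -0.40 ± 0.13, adjusted p = 0.509, with an unadjusted p of 0.00766. Set against Abcb1a per kilobase, Abcc1 stood at 1.62% ± 0.183 in Smad4 mutants and 0.782% ± 0.0901 in wild types.

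Abcc5, or MRP5, which exports cyclic GMP and other organic anions, was called in the Alk1 comparison alone. Alk1 mutants had 2369, 2215, 2259, 2009.5 and 1984 and wild types 2951, 2505, 2682, 2576 and 2588, with no overlap (log2 fold change -0.30 ± 0.07, adjusted p = 0.00638). Smad4 mutants had 3006, 3065, 2481, 2737 and 2821 and wild types 2953, 2717, 2932, 2763 and 2869, which overlap (log2 fold change -0.02 ± 0.06, adjusted p = 0.860). Eng mutants had 3640.1, 3325, 3471, 3641 and 3854 and wild types 3197, 3678, 3687, 3478 and 3601 (log2 fold change 0.02 ± 0.05, adjusted p = 0.788). IgG-treated mutants had 2809, 3018 and 2904 and IgG-treated wild types 2799.6, 2629.9 and 2896 (log2 fold change 0.07 ± 0.05, adjusted p = 0.351). The Alk1 effect differed from the others, with 0.28 ± 0.08, adjusted p = 0.0207 for Smad4 minus Alk1 and -0.32 ± 0.08, adjusted p = 0.00964 for Alk1 minus Eng. Among the Alk1 libraries without a code the log2 fold change was -0.25 (adjusted p = 0.117), and among those with a code -0.37 (adjusted p = 0.00453). Abcc2, the canalicular organic anion pump, was at most 3.10 in any library and was listed at 0 in all Smad4 wild types and all Alk1 mutants.

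The makeup of the efflux list differed between mutants and wild types of the untreated models. Abcb1a made up 61.2% ± 1.87 of the summed per-kilobase level of the efflux list in Alk1 mutants and 69.8% ± 1.06 in Alk1 wild types, and Abcc4 19.1% ± 2.66 in mutants and 13.9% ± 0.793 in wild types. In the Smad4 model Abcb1a made up 66.6% ± 1.48 in mutants and 70.1% ± 0.755 in wild types, and in the Eng model 65.4% ± 1.07 in mutants and 67.7% ± 0.4002 in wild types. Under IgG the shares were 69.8% ± 1.17 in mutants and 70.4% ± 0.0915 in wild types (SD, n = 3 each).

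**Figure D4:**
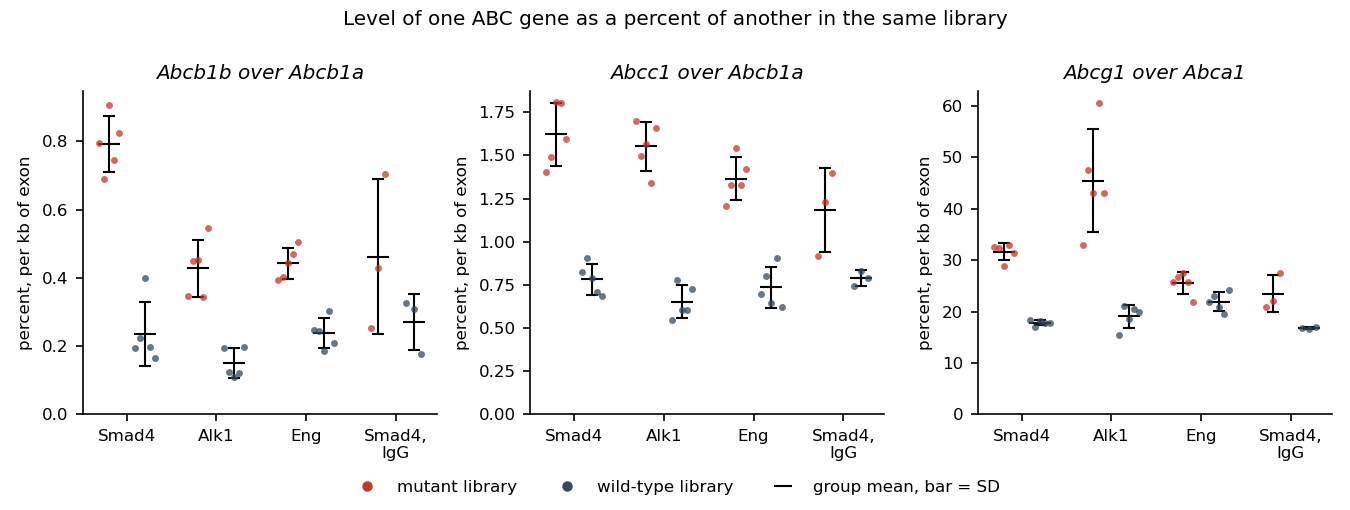
Level of Abcb1b and of Abcc1 as a percent of Abcb1a, and of Abcg1 as a percent of Abca1, per kilobase of exon within each library (y axes, from 0), in the 4 comparisons (x axis), mutants in red at the left and wild types in blue at the right of each pair, with the group mean and SD in black. The Abcg1 share is 32.9% to 60.6% in Alk1 mutants and 15.5% to 21.0% in Alk1 wild types.

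The sterol and lipid transporters were led by Abca1, which loads cholesterol and phospholipid onto apolipoproteins and is a classic target of the liver X receptors. It fell in every comparison, most in the Alk1 model. Alk1 mutants had 32284, 26699.9, 22489, 20656 and 23589 and wild types 49490.0, 46299, 52589, 39068 and 41391, far apart (log2 fold change -0.87 ± 0.12, adjusted p = 0.000221). Smad4 mutants had 40046, 38061, 39712, 32520.0 and 33458 and wild types 44341, 55005, 48821, 46021 and 43019, without overlap (log2 fold change -0.37 ± 0.09, adjusted p = 0.00918). Eng mutants had 52519.8, 52479, 48011, 54996 and 57785 and wild types 60921, 68100.0, 68261, 64623 and 57302, where mutant 5 came just above the lowest wild type (log2 fold change -0.26 ± 0.06, adjusted p = 0.0104). IgG-treated mutants had 41904, 38197 and 37501 and IgG-treated wild types 48585, 46083 and 46278 (log2 fold change -0.26 ± 0.07, adjusted p = 0.0287). The fall was larger in the Alk1 model, with 0.51 ± 0.14, adjusted p = 0.0119 for Smad4 minus Alk1 and -0.61 ± 0.14, adjusted p = 0.00329 for Alk1 minus Eng. In the Smad4 model the call was lost with the pericyte level (log2 fold change -0.21, adjusted p = 0.292) or the glial and neuronal level (-0.26, adjusted p = 0.0962) in the fit, and under IgG it was lost in 7 of 23 alternatives (among them without mutant 2 or 3 or wild type 1, 2 or 3).

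Abcg1, which passes sterols on to lipoprotein particles and shares the liver X receptors with Abca1, rose in the Smad4 and Alk1 models. Smad4 mutants had 9198, 8696, 8068, 7539.6 and 7396 and wild types 5703, 6605, 6262, 5777 and 5373, with every mutant above every wild type (log2 fold change 0.46 ± 0.08, adjusted p = 0.00108). Alk1 mutants had 7483, 8926, 6824, 8815 and 7164 and wild types 5391, 6851, 6878, 5639 and 5831, with 4 of 5 mutants above every wild type (log2 fold change 0.36 ± 0.10, adjusted p = 0.0147). Eng mutants had 9491, 9854, 9326, 9945 and 8909 and wild types 9357, 11069, 10010.5, 8878 and 9748, which overlap (log2 fold change -0.04 ± 0.05, adjusted p = 0.642). IgG-treated mutants had 6155, 5938 and 7273 and IgG-treated wild types 5747, 5362 and 5553, apart but short of the threshold (log2 fold change 0.21 ± 0.08, adjusted p = 0.0650). The difference in effect was 0.50 ± 0.12, adjusted p = 0.00572 for Smad4 minus Eng and 0.40 ± 0.12, adjusted p = 0.0183 for Alk1 minus Eng, and after quantile normalization neither of them passed the threshold (adjusted p = 0.0697 and 0.156). With libraries divided by their totals the Alk1 minus Eng difference was lost too (adjusted p = 0.0896). The Alk1 rise itself was lost after quantile normalization (adjusted p = 0.0802) and among libraries without a code (adjusted p = 0.195). Within a library, Abcg1 stood per kilobase at 31.6% ± 1.67 of Abca1 in Smad4 mutants and 17.8% ± 0.487 in wild types, at 45.4% ± 10.02 in Alk1 mutants and 19.1% ± 2.23 in wild types, and at 25.5% ± 2.17 in Eng mutants and 21.9% ± 1.83 in wild types.

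Abca4, known as the retinoid flippase of photoreceptors, gave the largest rise past the threshold of any member, in the Alk1 model. Alk1 mutants had 1172, 1803, 1983, 1274 and 1092 and wild types 444, 451, 481, 415 and 475. Every mutant was more than 2 times the highest wild type (log2 fold change 1.65 ± 0.15, adjusted p = 9.89e-06). Eng mutants had 881, 804, 984, 931 and 759 and wild types 722, 653, 657, 741 and 662, also apart (log2 fold change 0.34 ± 0.08, adjusted p = 0.00776). Smad4 mutants had 671, 589, 697, 1339.7 and 1266 and wild types 1142, 619, 548, 524 and 490.1. High values there were those of mutants 4 and 5, whose column names carry a library code, and of wild type 1, whose name does not (log2 fold change 0.45 ± 0.28, adjusted p = 0.245). IgG-treated mutants had 417, 511 and 584 and IgG-treated wild types 822, 504 and 490.1 (log2 fold change -0.24 ± 0.20, adjusted p = 0.407). The Alk1 effect exceeded both others, with -1.20 ± 0.30, adjusted p = 0.00485 for Smad4 minus Alk1 and 1.31 ± 0.30, adjusted p = 0.00288 for Alk1 minus Eng, and these differences held under every alternative run.

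Promoters are printed for Abca1, Abca4 and Abcb1b, as the sterol exporter that fell in every comparison and the members with the largest called rises in the Alk1 and the Smad4 model. They come from RefSeq (GRCm38.p6), run from 250 bases before to 50 after the start, and capitals mark matches to GGGCGG (the Sp1 box), CCAAT (the NF-Y box), GGCGCC (a GC-rich element bound by BMP-responsive SMADs) or ACGTG (the core of hypoxia and E-box elements), each searched on both strands.
Abca1, chr4:53159846-53160145, minus strand: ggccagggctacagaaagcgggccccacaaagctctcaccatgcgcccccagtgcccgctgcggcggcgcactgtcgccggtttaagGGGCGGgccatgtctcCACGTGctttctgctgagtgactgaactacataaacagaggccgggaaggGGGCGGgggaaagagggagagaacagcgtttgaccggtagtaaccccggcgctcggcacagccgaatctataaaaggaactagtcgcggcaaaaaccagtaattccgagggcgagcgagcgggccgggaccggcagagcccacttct
Abca4, chr3:122044210-122044509, plus strand: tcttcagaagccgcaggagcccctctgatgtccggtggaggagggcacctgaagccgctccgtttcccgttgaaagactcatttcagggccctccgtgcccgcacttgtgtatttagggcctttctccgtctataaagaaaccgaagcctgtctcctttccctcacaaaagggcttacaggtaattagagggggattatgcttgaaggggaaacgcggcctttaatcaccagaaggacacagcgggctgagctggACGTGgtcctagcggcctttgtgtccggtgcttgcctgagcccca
Abcb1b, chr5:8797897-8798196, plus strand: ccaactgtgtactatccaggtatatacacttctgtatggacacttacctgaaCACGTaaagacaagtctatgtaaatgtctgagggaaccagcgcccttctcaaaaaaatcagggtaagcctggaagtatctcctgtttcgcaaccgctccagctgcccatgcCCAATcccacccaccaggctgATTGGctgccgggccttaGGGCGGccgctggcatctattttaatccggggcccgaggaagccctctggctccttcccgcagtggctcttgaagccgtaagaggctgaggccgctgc
The Abca1 window holds GGGCGG 2 times and CACGTG once, which counts as ACGTG on each strand. The Abcb1b window holds GGGCGG once, CCAAT 2 times and ACGTG once, and the Abca4 window holds ACGTG once. GGCGCC is in none of the 3. GGGCGG is held by 35.7% of all 32851 promoters listed by RefSeq, CCAAT by 37.4%, GGCGCC by 11.9% and ACGTG by 19.6%. Of the 45 promoters listed for 38 members, 21 hold GGGCGG, 16 CCAAT, 7 GGCGCC and 10 ACGTG. A match describes the letters of the window and no more. The Abcb1a window is not printed because the RefSeq start lies 93.0 kb upstream of the start of the annotation used for its position.

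Abca2, an endosomal lipid transporter abundant in oligodendrocytes, fell in both Smad4 comparisons and in the Alk1 model. Smad4 mutants had 1257, 1265, 1676, 1155 and 1095 and wild types 2366, 2073, 1897, 1878 and 1878 (log2 fold change -0.66 ± 0.11, adjusted p = 0.00140). Alk1 mutants had 1012, 1089.5, 1003, 945 and 1043 and wild types 1483, 1769.7, 1359, 1385 and 1594 (log2 fold change -0.57 ± 0.08, adjusted p = 0.000247). The mutants lay below every wild type in both models. Eng mutants had 1939.7 ± 162 and wild types 2207 ± 175 (log2 fold change -0.19 ± 0.07, adjusted p = 0.0658), and IgG-treated mutants 1414 ± 178 and wild types 1983 ± 82.5 (log2 fold change -0.49 ± 0.08, adjusted p = 0.00375). The effect in the Smad4 model minus that in the Eng model was -0.47 ± 0.13, adjusted p = 0.0219, lost in 3 of 35 alternatives (without Smad4 mutant 4 or 5 or Smad4 wild type 1). Oligodendrocyte-lineage markers summed to 1439.9 to 6730.5 in Smad4 mutants and 5347 to 18332 in wild types, with 2 of 5 tested called lower, and to 589 to 2867 in Alk1 mutants and 595 to 6651 in wild types, with 0 of 4 called. With the glial and neuronal level in the fit the Smad4 log2 fold change of Abca2 was -0.40 (adjusted p = 0.0111), and with the pericyte level -0.48 (adjusted p = 0.0683).

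Abca3, the surfactant lipid transporter of the lung, rose in the Alk1 and Smad4 models. Alk1 mutants had 6314, 9149, 8851, 6905 and 6491 and wild types 5653, 5983, 5256, 5034 and 5277 (log2 fold change 0.46 ± 0.11, adjusted p = 0.00680). Smad4 mutants had 6665, 6816, 6926, 6664 and 6722 and wild types 5816, 6176, 6339, 5597 and 5546 (log2 fold change 0.20 ± 0.05, adjusted p = 0.00947). The groups were apart in both models, and Alk1 mutants 2 and 3 were the highest of their table. Eng mutants had 7118 ± 130.2 and wild types 7526 ± 376 (log2 fold change -0.08 ± 0.04, adjusted p = 0.149), and the Alk1 minus Eng difference was 0.53 ± 0.11, adjusted p = 0.000885. The Smad4 call was lost when libraries were divided by their totals, after quantile normalization, with the pericyte level in the fit and among libraries without a code, and the Alk1 call under the last 2 of these. Abca5, a lysosomal lipid transporter, rose in the Alk1 model, with 396, 426, 373, 368 and 378 in mutants and 278, 274, 286, 356 and 319 in wild types (log2 fold change 0.36 ± 0.10, adjusted p = 0.0138). The groups did not overlap. The call was lost when libraries were divided by their totals (adjusted p = 0.0639), with the pericyte level in the fit (adjusted p = 0.120) and among libraries with a code (adjusted p = 0.399).

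**Figure D5:**
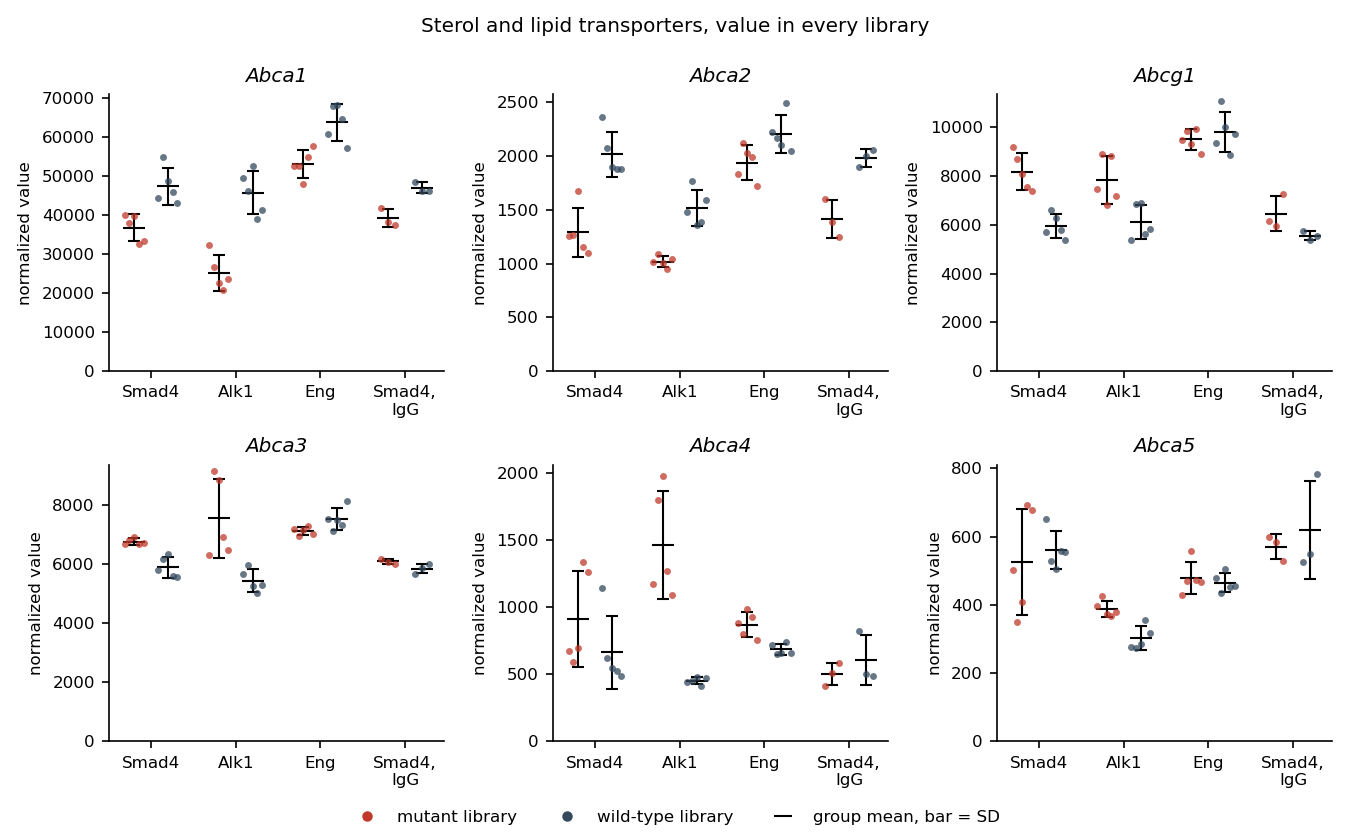
Normalized value (y axis, from 0) of 6 sterol and lipid transporters in every library of the 4 comparisons (x axis), mutants in red at the left and wild types in blue at the right of each pair, with the group mean and SD in black. Against their own wild types, Abca1 is lower and Abca4 higher in all Alk1 mutants, and Abcg1 is higher in all Smad4 mutants and in 4 of 5 Alk1 mutants.

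Of the other lipid transporters, 5 were called in 1 or 2 comparisons each and Abca8a in none. Abca7, which acts on phospholipids in phagocytes, was 1049 ± 113 in Alk1 mutants and 1329 ± 162 in wild types (log2 fold change -0.34 ± 0.10, adjusted p = 0.0190), and its effect differed from both other models (0.37 ± 0.11, adjusted p = 0.0158 for Smad4 minus Alk1 and -0.38 ± 0.11, adjusted p = 0.0160 for Alk1 minus Eng). Abca8b had 55.2, 34.2, 41.2, 49.4 and 30.6 in Alk1 mutants and 77.4, 58.1, 72.9, 68.8 and 57.6 in wild types, apart (log2 fold change -0.67 ± 0.20, adjusted p = 0.0256). This call was lost in 9 of 24 alternatives (among them without mutant 2 or 5 or wild type 1, 3 or 4). It shares 1.42% of its 50-base windows with Abca8a. Abca9 fell under IgG, with 819, 665 and 1094 in mutants and 1946, 1624 and 1116 in wild types, just apart (log2 fold change -0.85 ± 0.22, adjusted p = 0.0221). It was lost in 5 of 23 alternatives (among them without mutant 2 or wild type 1 or 2). It also fell in the Alk1 model, at 542 ± 102 in mutants and 784 ± 104 in wild types (log2 fold change -0.54 ± 0.14, adjusted p = 0.00932). The Alk1 calls of Abca7 and Abca9 were lost with the pericyte level and among libraries without a code. Abcb4, the phosphatidylcholine flippase of bile, had 20.7, 21.4 and 19.3 in IgG-treated mutants and 55.0, 34.1 and 50.1 in wild types (log2 fold change -1.08 ± 0.28, adjusted p = 0.0224), a low level close to the limit of measurement. Its call was lost in 7 of 22 alternatives (among them without mutant 2 or 3 or wild type 1 or 3). Abcg4, a sterol transporter of neurons and glia, had 17.8, 13.1, 29.9, 12.3 and 6.53 in Smad4 mutants and 65.9, 59.1, 24.8, 22.2 and 43.7 in wild types (log2 fold change -1.34 ± 0.42, adjusted p = 0.0321). Mutant 3 overlapped the wild types, and the call was lost in 11 of 23 alternatives (among them without mutant 2, 4 or 5 or wild type 1, 2 or 5). Neuron markers beside it summed to 2277 to 4497 in Smad4 mutants and 3277 to 5513 in wild types, with 4 of 6 called lower, and their part in the result was not tested for Abcg4 beyond the fit with the glial and neuronal level (adjusted p = 0.439).

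Of the 4 ABC proteins of translation, 3 rose in the Smad4, Eng and IgG comparisons. They were Abce1, which splits ribosomes after termination, and Abcf1 and Abcf2, ribosome-associated ATPases, and 0 of 4 were called in the Alk1 model. Abcf2 had 3013, 3263, 2979, 3306 and 3209 in Smad4 mutants and 2443, 2429, 2486, 2269.9 and 2177 in wild types, with no overlap (log2 fold change 0.42 ± 0.05, adjusted p = 0.000213). Eng mutants had 3771, 3467, 3633, 3775 and 3655 and wild types 3180.1, 3187, 3132, 3017 and 3317, also apart (log2 fold change 0.21 ± 0.04, adjusted p = 0.00150). IgG-treated mutants had 2762, 2840.2 and 3036 and wild types 2166, 2363 and 2380.3 (log2 fold change 0.32 ± 0.05, adjusted p = 0.00365). Alk1 mutants had 2713 ± 303 and wild types 2536 ± 164 (log2 fold change 0.09 ± 0.08, adjusted p = 0.417), and the Smad4 minus Alk1 difference was 0.33 ± 0.08, adjusted p = 0.00700. That difference did not pass the threshold for Abce1 (0.28 ± 0.11, adjusted p = 0.0904) or Abcf1 (0.11 ± 0.07, adjusted p = 0.306). Alk1 minus Eng passed it for none of the 3, with adjusted p = 0.383 for Abcf2, 0.568 for Abce1 and 0.567 for Abcf1.

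Abce1 had 4056, 4323, 4028, 4186 and 3918 in Smad4 mutants and 3374, 3506, 3522, 3104 and 3016 in wild types, with no overlap (log2 fold change 0.31 ± 0.06, adjusted p = 0.00182). In the Eng model it had 5605, 5193, 5492, 5347 and 5122 in mutants and 4855, 5152, 4995, 4594 and 4594 in wild types, where mutant 5 lay just below the highest wild type (log2 fold change 0.15 ± 0.04, adjusted p = 0.0237). This call was lost in 4 of 23 alternatives (among them without mutant 1 or 3 or wild type 4). IgG-treated mutants had 3794, 3889 and 4013 and wild types 3123, 3296 and 3466, apart (log2 fold change 0.24 ± 0.05, adjusted p = 0.00752). Abcf1 had 6577, 6131, 6412, 6359 and 6465 in Eng mutants and 5696, 5661, 6072, 5731 and 5999 in wild types (log2 fold change 0.13 ± 0.03, adjusted p = 0.0118), and 4882, 4818 and 5016 in IgG-treated mutants and 4458, 4245 and 4525 in wild types (log2 fold change 0.15 ± 0.04, adjusted p = 0.0256). All mutants lay above all wild types in both. The IgG call was lost in 7 of 23 alternatives (among them in the IgG table alone and without mutant 2 or 3 or wild type 2). In Smad4 mutants Abcf1 stood at 5198 ± 164 and in wild types at 4608 ± 256 (log2 fold change 0.17 ± 0.05, adjusted p = 0.0195). There it was lost in 5 of 24 alternatives (when libraries were divided by their totals, after quantile normalization, with the glial and neuronal level, with the pericyte level and among libraries without a code). Abcf3 was not called anywhere, with log2 fold changes between -0.10 and 0.12. The called rises of this group ran from 1.10 to 1.34 times the wild type.

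Among the mitochondrial transporters, Abcb10, an erythroid-rich inner membrane transporter linked to haem synthesis, fell in the Alk1 model, to 809 ± 71.0 in mutants against 1035 ± 91.6 in wild types (log2 fold change -0.36 ± 0.08, adjusted p = 0.00646). The call was lost with the pericyte level and among libraries without a code. Erythroid markers summed to 14640.5 to 21826 in Alk1 mutants and 37448 to 63225 in wild types, with 3 of 3 tested called lower. Hbb-bs was listed at 0 in all Alk1 mutants, and also in all untreated Smad4 mutants and all IgG-treated and LC10-treated libraries. In the Smad4 model the erythroid markers summed to 10239 to 18439 in mutants and 28884 to 44053 in wild types, with 3 of 3 called lower. In the Eng model they summed to 16954 to 30050.4 in mutants and 25759 to 43974 in wild types, with 3 of 4 called lower. Abcb10 was not called in either model (log2 fold change -0.16 ± 0.09, adjusted p = 0.192 for Smad4 and log2 fold change 0.02 ± 0.08, adjusted p = 0.887 for Eng). The part of the erythroid markers in the Alk1 result was not tested. Abcb6 and Abcb8 were called in no comparison, with log2 fold changes of -0.18 to 0.16, although for Abcb8 the Smad4 effect minus the Alk1 effect passed the threshold (0.34 ± 0.09, adjusted p = 0.0119). Abcb6 shares 50.01% of its 50-base windows with Gm29253, so its level is uncertain.

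Of the peroxisomal and lysosomal transporters, Abcb9, the lysosomal peptide transporter, fell in 2 models. Smad4 mutants had 125, 117, 145.7, 90.01 and 80.5 and wild types 183, 164, 203, 146.1 and 147, with no overlap (log2 fold change -0.61 ± 0.18, adjusted p = 0.0261). The call was lost in 8 of 24 alternatives (among them without mutant 4 or 5 or wild type 1 or 3). Alk1 mutants had 107 ± 22.6 and wild types 157 ± 19.3 (log2 fold change -0.57 ± 0.17, adjusted p = 0.0240). The Alk1 call was lost in 6 of 24 alternatives (among them without wild type 2, 3 or 4). Abcd3, which takes branched-chain fatty acids into peroxisomes, fell in the Alk1 model, to 2459.6 ± 159 in mutants against 2859 ± 121 in wild types (log2 fold change -0.22 ± 0.06, adjusted p = 0.0163). It was lost in 3 of 24 alternatives (with the pericyte level, among libraries without a code and among libraries with a code). Abcd2, a peroxisomal fatty acid transporter, had 149, 145.9 and 218 in IgG-treated mutants and 389.9, 318 and 316 in wild types, apart (log2 fold change -1.01 ± 0.18, adjusted p = 0.00545). Abcd4, which takes part in lysosomal release of vitamin B12, was called in no comparison.

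Channel-regulating members belong to ATP-sensitive potassium channels, and each was called lower in 1 of the Smad4 comparisons. Abcc9, or SUR2, pairs with Kcnj8 in pericytes. It had 5543, 4957 and 3758 in IgG-treated mutants and 9065, 7206 and 6182 in wild types, without overlap (log2 fold change -0.66 ± 0.18, adjusted p = 0.0278). This call was lost in 7 of 23 alternatives (among them without mutant 2 or 3 or wild type 1 or 2). In untreated Smad4 mutants it had 4263, 5405, 3879, 4527 and 2069 and in wild types 5479, 6991, 5082, 5823 and 4051, which overlap (log2 fold change -0.49 ± 0.23, adjusted p = 0.119). Kcnj8 fell under IgG too, to 955 ± 208 in mutants against 1724 ± 393 in wild types (log2 fold change -0.85 ± 0.25, adjusted p = 0.0350), and it is 1 of the 8 pericyte markers whose sums are given above. With the pericyte level in the fit the IgG log2 fold change of Abcc9 was -0.10 (adjusted p = 0.597). Abcc8, or SUR1, was near the limit of measurement. It had 14.8, 2.18, 13.8, 7.69 and 1.31 in Smad4 mutants and 55.3, 28.3, 34.6, 22.3 and 26.6 in wild types, with the groups apart but at a level where an inferred single fragment is worth 1.303 to 2.97 (log2 fold change -2.06 ± 0.52, adjusted p = 0.0119). Every Smad4 wild type but no Smad4 mutant reached the minimum value for a measured gene. Abcc8 was thus admitted to this test by its wild types alone, a selection that favours a fall in mutants. The separation and the call rest on that selection. The call was lost among libraries without a code and among those with a code. It was also lost with the pericyte level (adjusted p = 0.282) and with the glial and neuronal level (adjusted p = 0.152). In the same libraries 4 of 6 neuron, 1 of 6 astrocyte, 2 of 5 oligodendrocyte-lineage and 6 of 8 pericyte markers were called lower. Alk1 mutants had 18.9, 25.5, 45.5, 71.0 and 37.8 and wild types 8.39, 23.8, 0, 15.0 and 25.1, which overlap (log2 fold change 1.66 ± 0.66, adjusted p = 0.0703). The Smad4 minus Alk1 difference was -3.72 ± 0.81, adjusted p = 0.00162, and it rests on the same selection in the Smad4 table.

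The 4 remaining measured members were Abcc3, Abcc6, Abcc10 and Abcg3. Abcc6, best known from the liver and as the gene of pseudoxanthoma elasticum, fell in the 3 untreated models. Eng mutants had 3501, 3152, 3513, 3258 and 3642 and wild types 4367, 3781, 4735, 4203 and 4390.3, apart (log2 fold change -0.33 ± 0.06, adjusted p = 0.00195). Alk1 mutants had 2296, 2086, 1973, 2680.2 and 2682 and wild types 2959, 3509, 3175, 3645 and 4076, also apart (log2 fold change -0.57 ± 0.11, adjusted p = 0.00181). Smad4 mutants had 2561, 2545, 2225, 2489 and 2628 and wild types 2548, 3511, 3261, 3678 and 3919.7, where wild type 1 lay among the mutants (log2 fold change -0.43 ± 0.10, adjusted p = 0.00977). This call was lost in 2 of 24 alternatives (with the pericyte level and among libraries without a code). Under IgG the mutants stood at 3397 ± 333 and the wild types at 3638 ± 339 (log2 fold change -0.10 ± 0.10, adjusted p = 0.473), and IgG minus untreated was 0.33 ± 0.16, adjusted p = 0.658. Abcc10, or MRP7, was lower in Alk1 mutants at 358 ± 31.9 against 500.3 ± 67.2 in wild types (log2 fold change -0.48 ± 0.11, adjusted p = 0.00528) and in Smad4 mutants at 389 ± 63.8 against 502 ± 29.5 in wild types (log2 fold change -0.38 ± 0.11, adjusted p = 0.0219). The Alk1 call was lost among libraries without a code. The Smad4 call was lost in 6 of 24 alternatives (among them without mutant 4 or 5 or wild type 1). Abcg3, a rodent relative of Abcg2, had 48.3, 43.5, 16.1, 37.9 and 10.7 in Alk1 mutants and 79.3, 59.0, 55.0, 98.6 and 71.0 in wild types, apart (log2 fold change -1.33 ± 0.38, adjusted p = 0.0180). It was lost in 2 of 24 alternatives (with the pericyte level and among libraries without a code). Abcc3, or MRP3, had 225, 250.2 and 314 in IgG-treated mutants and 612, 419.8 and 355 in wild types, apart (log2 fold change -0.78 ± 0.20, adjusted p = 0.0199). The Abcc3 call was lost in 2 of 23 alternatives (with the pericyte level and without mutant 2).

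Called lower under IgG and not called in untreated Smad4 mutants were Abca9, Abcb4, Abcc3, Abcc9 and Abcd2, although for none of them did the difference between the IgG and untreated effects pass the threshold. Markers of several cell types moved in the same libraries. The 6 microglia markers summed to 6661 to 11728 in IgG-treated mutants and 12343 to 25317 in IgG-treated wild types, and 6 of 6 were called lower. In untreated Smad4 mutants they summed to 2521 to 13771 and in wild types to 5321 to 16225, with 0 of 6 called. Fibroblast markers summed to 2781 to 4186 in IgG-treated mutants and 5625 to 6599 in IgG-treated wild types, with 3 of 5 called lower. Under IgG 2 of 3 smooth muscle, 1 of 4 choroid plexus and ependyma, 6 of 8 pericyte and 2 of 6 astrocyte markers were called lower. Of 6 neuron markers 2 were lower and 1 higher, and 0 of 5 oligodendrocyte-lineage markers were called. The part of these cell types in these falls was not tested. With the pericyte level in the fit 2 of the 13 IgG calls held, Abcb1a and Abcc4, beside 438 genes of all tested, against 3371 without it.

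Effects in the models were compared as differences of the within-table log2 fold changes, with all 30 libraries of untreated pups in a single limma model. Smad4 minus Alk1 was called for 9 of 35 members, beside 17.1% of 13500 genes (8.44% positive and 8.63% negative). Smad4 minus Eng was called for 2, 1 in each direction, beside 8.65% (4.58% positive and 4.07% negative). Alk1 minus Eng was called for 9, beside 15.8% (8.55% positive and 7.27% negative). Of the 9 members in Smad4 minus Alk1, 5 had a higher effect in the Smad4 model (Abca1, Abca7, Abcb8, Abcc5 and Abcf2) and 4 a lower (Abca4, Abcc4, Abcc8 and Abcg2). The Abcc8 difference rests on the selection in the Smad4 table described above. Alk1 minus Eng was positive for Abca3, Abca4, Abcc4 and Abcg1 and negative for Abca1, Abca2, Abca7, Abcb10 and Abcc5. For Abcb10 that difference was -0.38 ± 0.12, adjusted p = 0.0369, lost in 12 of 35 alternatives, and for Abca2 -0.38 ± 0.13, adjusted p = 0.0438, lost in 14 of 35.

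Between IgG-treated and untreated Smad4 pups no difference of effect passed the threshold with limma, for 0 of 36 members and 0 of 13860 genes, of which 1045 had an unadjusted p under 0.05. Of the 36 members measured in both, 16 were called in untreated pups and 13 under IgG, and 8 were called in both in the same direction, beside 16.3% of the 13860 genes measured in both. These 8 are Abca1, Abca2, Abcb1a, Abcc4, Abce1, Abcf1, Abcf2 and Abcg2.

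LC10 values are in a table of their own, so treatment and table cannot be told apart, and levels are set side by side without a test after scaling the 9 antibody libraries by the median of ratios. The median log2 ratio of LC10-treated over IgG-treated mutants was 0.03 for the 36 members and 0.00 for all 14052 genes. Abcb1a had 25172, 25576 and 24983 in LC10-treated mutants and 25511, 22868 and 22041 in IgG-treated mutants, with 33039, 31425 and 32012 in IgG-treated wild types. Abcg2 had 7063, 7396 and 6184 in LC10-treated mutants and 7162, 6451 and 6184 in IgG-treated mutants, with 9386, 9745 and 8935 in IgG-treated wild types. Abcc4 had 4319.5, 3990.2 and 4425 in LC10-treated mutants and 4425, 4603 and 4359 in IgG-treated mutants, with 6679, 5845 and 6618 in IgG-treated wild types. All 3 pumps thus stayed below the IgG-treated wild types in every LC10-treated mutant. The widest gap among members was that of Abcc9, with 2897, 2519.7 and 1991 in LC10-treated mutants, 5541, 4958 and 3752 in IgG-treated mutants and 9104, 7212 and 6164 in IgG-treated wild types. On the same scale the 8 pericyte markers summed to 23128 to 36153 in LC10-treated mutants, 35174 to 69969.8 in IgG-treated mutants and 72142 to 100068 in IgG-treated wild types, and their part in the gap was not tested.

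Of the genes outside the family, receptors and factors known to act on ABC genes moved in both directions. Esr1, the oestrogen receptor, rose in all 4 comparisons, with 344 ± 78.1 in Smad4 mutants and 88.1 ± 19.9 in wild types (log2 fold change 1.94 ± 0.20, adjusted p = 3.98e-05), 271 ± 67.6 in Alk1 mutants and 82.6 ± 11.01 in wild types, and 311 ± 27.6 in Eng mutants and 103 ± 9.93 in wild types. Nr3c1, the glucocorticoid receptor, fell in all 4, with a log2 fold change of -0.44 ± 0.05 for Smad4 (adjusted p = 5.32e-05), -0.30 ± 0.07 for Alk1 (adjusted p = 0.00377), -0.19 ± 0.03 for Eng (adjusted p = 0.00278) and -0.38 ± 0.06 for IgG (adjusted p = 0.00264). Ahr, the aryl hydrocarbon receptor, fell to 532 ± 70.0 in Smad4 mutants against 1281 ± 133 in wild types (log2 fold change -1.27 ± 0.10, adjusted p = 8.82e-06). Hif1a rose in the Alk1 model, to 10457 ± 1661 in mutants against 6371 ± 83.8 in wild types (log2 fold change 0.70 ± 0.09, adjusted p = 0.000129). In all, 3 of 15 regulators tested were called higher and 4 lower in the Smad4, 3 and 3 of 15 in the Alk1, 4 and 4 of 17 in the Eng and 4 and 2 of 15 in the IgG comparison, beside the 17.2% higher and 15.8% lower of all genes in the Smad4, 17.5% and 15.7% in the Alk1, 12.4% and 9.08% in the Eng and 13.2% and 10.8% in the IgG comparison.

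Among partners of ABC proteins, Msn, which anchors membrane proteins to actin, rose in all 4 comparisons, and Apoe, an acceptor of exported lipid, and Lmbrd1, the lysosomal partner of Abcd4, fell in all 4. Apoe stood at 13094 ± 2313 in IgG-treated mutants and 29722 ± 4301 in wild types (log2 fold change -1.19 ± 0.13, adjusted p = 0.000554), and it is also a product of glia. Astrocyte markers summed to 8496 to 10745 in IgG-treated mutants and 12199.7 to 15339 in wild types, with 2 of 6 called lower. In the same comparison 6 of 6 microglia and 6 of 8 pericyte markers were called lower, against 0 of 5 oligodendrocyte-lineage markers. The part of these cell types in the Apoe fall was not tested. Of 9 partners tested, 1 was called higher and 2 lower in the Smad4 and likewise in the Alk1 comparison, 2 and 2 in the Eng and 2 and 3 in the IgG comparison, beside 33.0%, 33.2%, 21.5% and 24.0% of all genes called in either direction. Of the 10 LXR and sterol target genes, 0 were called higher and 3 lower in the Smad4, 1 and 3 in the Alk1, 1 and 2 in the Eng and 2 and 1 in the IgG comparison, beside the same shares of all genes. Scd2, a stearoyl-CoA desaturase, fell to 21091 ± 1833 in Alk1 mutants against 31974 ± 2447 in wild types (log2 fold change -0.60 ± 0.08, adjusted p = 0.00013), and to 31278 ± 1810.5 in Smad4 mutants against 37399 ± 2939 in wild types (log2 fold change -0.26 ± 0.07, adjusted p = 0.0150). ABC proteins whose symbols fall outside the rule were called in single models. Tap1, the antigen peptide transporter, rose to 1996 ± 754 in Smad4 mutants against 893 ± 66.7 in wild types (log2 fold change 1.09 ± 0.20, adjusted p = 0.00251). Cftr, the chloride channel, stood at 39.1 ± 11.04 in Alk1 mutants against 13.9 ± 5.38 in wild types (log2 fold change 1.41 ± 0.34, adjusted p = 0.00726). That wild-type mean lies below the minimum value for a measured gene, and the mutant mean lies above it. The admission of Cftr to this test thus drew on its mutants, a selection that favours a rise, and the call rests on that selection.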

How the data were processed

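RNA of PECAM-purified brain endothelial cells was sequenced from 39 libraries in 9 groups. The labels call the deposited values raw counts, but the authors' deposited values are fractional and were treated as a normalized signal per gene. The most frequent low value of a library was taken as its step. At most 24.6% of a library's values were whole multiples of that step (tolerance 0.05), and 39.84% to 85.06% of values under 5 steps were. Whole reads were thus not recovered for nearly all genes, a count test did not apply and the test for normalized values was used. The genome build was mm10, per the submitters' processing notes. How reads were aligned, counted and scaled was not given in the sources used here. The 5 tables were treated as normalized separately, so mutant and wild-type levels were compared within a table only. The LC10-treated mutants, from a table of their own, entered the IgG fit as a separate group that added to the estimate of spread. They did so in the fit of IgG minus untreated too, so SE and p-values under IgG draw on both antibody tables. An alternative run used the IgG table alone. The 3 columns of the LC10 table that match no sample were not used, and of 24972 names 26 that are dates or occur more than once were dropped.

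Values were tested as log2(value + 2), which understates changes of low genes, with limma 3.58.1 (intensity trend, R 4.3.3) for mutant against wild type over all genes reaching 20 in at least 5 libraries (3 under IgG), with Benjamini-Hochberg adjustment at 0.05. Differences between models came from a joint fit of the 30 untreated libraries. The procedure was tested on simulated data. Tables and figures used Python 3.11.15, pandas 2.3.3 and matplotlib 3.10.9. Depth was inferred from the step of each library, its most frequent low value. No 2 columns were identical (r between 0.9688 and 0.9951). Gene lengths and positions came from GENCODE M21.

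Counts cover all members, of which 2 are not reported here by name or in the figures. Members and lists were chosen with earlier results of these data known. Values by sample are given for the measured efflux pumps and, in each comparison, for up to 4 called members outside that list with the largest change in each direction. Alternatives were the pseudocount (0.5 or 10), the filter (none, or 50), scaling by totals, by median of ratios or by quantiles, limma without a trend or with robust moderation, marker levels as covariates, library codes, and each library left out. Codes (L146, L219, L210, L216) are parts of column names whose meaning the labels do not give.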

Additional observations from a re-analysis of the deposited data

Results flagged for a closer look

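A single sample stood away from its group. Abcb1b in Smad4 wild type 3 was 181, where the other wild types had 82.2, 99.1, 94.2 and 77.4. It was 1 of 36 groups of efflux values looked at, and chance marks about 1 in 20.

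Effects differed between models past the threshold in 20 of 105 tests, as differences of log2 fold changes from limma in the joint fit. For Smad4 minus Alk1 these were Abca1 (0.51), Abca4 (-1.20), Abca7 (0.37), Abcb8 (0.34), Abcc4 (-0.56), Abcc5 (0.28), Abcc8 (-3.72), Abcf2 (0.33) and Abcg2 (-0.38). The Abcc8 value rests on the admission of that gene by its Smad4 wild types alone. For Smad4 minus Eng they were Abca2 (-0.47) and Abcg1 (0.50). For Alk1 minus Eng they were Abca1 (-0.61), Abca2 (-0.38), Abca3 (0.53), Abca4 (1.31), Abca7 (-0.38), Abcb10 (-0.38), Abcc4 (0.49), Abcc5 (-0.32) and Abcg1 (0.40). The models are in separate tables, and the Alk1 model also differs from the Smad4 and Eng models in tamoxifen dose and day and in age, which cannot be told apart from the gene deleted.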

How the results depend on the processing

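Over 81 called member results and 2132 alternative values, 1936 stayed called in the same direction, 196 lost the call and 0 reversed, and 38 results held under all alternatives run. These results were chosen for passing the threshold and the alternatives reuse the same libraries, so the lack of reversals is no separate support. With the pericyte level as a covariate 8 members were called in the Smad4 comparison (3 lower, 1394 genes in all), 10 in the Alk1 (3 higher, 7 lower, 2500 genes) and 2 in the IgG comparison (0 higher, 2 lower, 438 genes). Without it 4620 genes were called in the Smad4 and 3371 in the IgG comparison. In these 2 comparisons the pericyte sums of mutants and wild types were apart, so this covariate can hardly be told from genotype. With the glial and neuronal level 11 were called in the Smad4 comparison (5 lower; 2440 genes), and 2160 genes under IgG. Among libraries without a code 10 were called in the Smad4 comparison (5 lower; 2461 genes) and 7 in the Alk1 (3 higher, 4 lower; 2005 genes), where fewer libraries were tested. Restricting libraries to those with a code, or in the Eng model to code L210, was chosen after seeing the data; every called member kept its direction there. With the code as a term 16 were lower in the Smad4 comparison. Quantile normalization gave 5 members for Alk1 minus Eng. LC10 over IgG mutants had a median member log2 ratio of -0.34 as deposited. The causes were not tested.

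Leaving out single libraries gave 6 (without wild type 1) to 11 lower members in the Smad4 comparison, and under IgG 7 (without mutant 2) to 13 called, 5 to 10 lower and 1777 to 3795 genes. Smad4 minus Eng gave 1 (without Smad4 mutant 4, mutant 5 or wild type 1) to 3 members. Uncalled values near 0 changed sign. Abcc5 was 0.00419 in the Smad4 comparison with the pericyte level and -0.0467 to 0.0295 without single libraries, and in the Eng comparison -0.00696 with the glial and neuronal level and -0.0112 to 0.0507. Abcg2 in the Alk1 comparison was 0.0117 among libraries with a code and -0.0470 to 0.0409. Under IgG Abcb1b was -0.24 with the glial and neuronal level, -0.0420 with the pericyte level and -0.0754 to 0.55, and Abcc1 -0.0205 with the pericyte level.

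With the replicate number as a block, 14 members (4 higher, 10 lower) and 3862 genes were called under IgG. Same-numbered libraries deviated with correlations of 0.04, 0.02 and -0.07, and differently numbered ones with -0.14 to 0.14. With so few libraries in a group this check cannot settle whether the numbers pair the libraries. No paired analysis was possible in the untreated models because the numbers in their column names could not be matched to the replicate numbers of the labels. Depth limits the low members (Abcc8, Abcb4, Abcg4), whose values lie near the minimum of 20. In the Smad4 table Abcc8 reached that minimum in wild types only, and for Abcg4 the wild types alone sufficed to pass the filter.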
